A study of Homo sapiens with 12 samples.

Results

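The enzymes and transporters of glycolysis, of pyruvate entry into mitochondria and of the tricarboxylic acid (TCA) cycle were examined in 2 human neuroblastoma cell lines, with and without the ferroptosis inducer Erastin. The members were a named list of 42 genes, looked up by gene name among the 57167 gene names in the count tables, and all 42 were present. By role, 23 belonged to glycolysis (2 glucose importers, 9 enzymes of upper glycolysis, 2 bifunctional enzymes that set fructose-2,6-bisphosphate, 6 enzymes of lower glycolysis and 4 genes of lactate formation and export), 6 to pyruvate entry and 13 to the TCA cycle.

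RNA-seq was run on 12 samples in 4 groups of 3 replicates: KELLY with DMSO, KELLY with 1 µM Erastin, SK-N-AS with DMSO and SK-N-AS with 2 µM Erastin, all harvested at 24 h. KELLY carries an amplified MYCN gene and SK-N-AS does not, and MYCN read 5077, 5701 and 5086 CPM (counts scaled to library size) in the KELLY controls against 0.405, 0.278 and 0.414 in the SK-N-AS controls. Erastin blocks the cystine importer of the cell and so lowers its supply of cysteine for glutathione. The triplicates were wells of 1 line, so every p-value measures the spread between those wells, and the dose of Erastin differed with the line, so dose and line cannot be told apart.

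Glycolysis splits glucose into pyruvate in the cytosol and yields ATP and NADH. Pyruvate is then either reduced to lactate and exported or carried into mitochondria, where the pyruvate dehydrogenase complex makes acetyl-CoA from it and the TCA cycle oxidizes that unit to carbon dioxide. Many steps can be run by more than one isozyme, encoded by separate genes, and cells of different origin choose among them. MYC family proteins bind the E-box CACGTG, and the hypoxia-inducible factors bind sites with the core ACGTG or GCGTG. Both groups of factors are known regulators of glycolytic genes.

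For 4 members that differed most between the lines and had an entry among the RefSeq promoters of GRCh38.p14, the 300 bases from 250 before to 50 after the transcription start are shown, 5′ to 3′ on the strand of the gene. PFKFB3 and SLC16A3 were lower in KELLY, and ENO2 and PDK1 were higher. Capitals mark ACGTG or GCGTG on either strand, including the palindrome CACGTG where it occurs. The windows are chr10:6202682-6202981 on the plus strand for PFKFB3, chr17:82235524-82235823 on the plus strand for SLC16A3, chr12:6914330-6914629 on the plus strand for ENO2 and chr2:172555840-172556139 on the plus strand for PDK1.
PFKFB3: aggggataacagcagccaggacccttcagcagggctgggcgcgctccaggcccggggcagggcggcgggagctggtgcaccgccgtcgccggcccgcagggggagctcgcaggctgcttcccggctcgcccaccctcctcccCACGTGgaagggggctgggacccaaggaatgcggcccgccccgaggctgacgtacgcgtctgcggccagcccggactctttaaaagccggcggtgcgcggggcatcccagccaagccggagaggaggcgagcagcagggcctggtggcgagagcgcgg
SLC16A3: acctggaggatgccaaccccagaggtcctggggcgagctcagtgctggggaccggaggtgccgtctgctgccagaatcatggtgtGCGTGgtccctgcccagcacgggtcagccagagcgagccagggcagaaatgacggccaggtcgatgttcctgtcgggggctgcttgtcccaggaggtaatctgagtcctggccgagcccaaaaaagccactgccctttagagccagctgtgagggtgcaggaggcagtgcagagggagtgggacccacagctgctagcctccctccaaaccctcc
ENO2: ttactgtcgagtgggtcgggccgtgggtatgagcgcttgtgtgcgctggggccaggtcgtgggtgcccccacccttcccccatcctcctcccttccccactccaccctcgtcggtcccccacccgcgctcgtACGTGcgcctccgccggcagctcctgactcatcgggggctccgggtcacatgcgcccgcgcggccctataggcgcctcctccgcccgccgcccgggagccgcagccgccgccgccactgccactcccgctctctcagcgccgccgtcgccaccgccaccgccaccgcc
PDK1: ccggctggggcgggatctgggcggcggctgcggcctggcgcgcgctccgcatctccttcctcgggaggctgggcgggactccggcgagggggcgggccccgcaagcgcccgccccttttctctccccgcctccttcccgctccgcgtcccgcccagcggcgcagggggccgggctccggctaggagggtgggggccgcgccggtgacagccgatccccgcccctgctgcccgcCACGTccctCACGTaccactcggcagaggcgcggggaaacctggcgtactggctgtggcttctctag

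PFKFB3 was the only one of these 4 with a full CACGTG. A promoter was on hand for 39 of the 42 members. CACGTG stood in 5 of those 39 (4 of 21 glycolysis promoters and 0 of 12 TCA cycle promoters), against 7.26% of all 35116 promoters. ACGTG or GCGTG, which CACGTG also counts as, stood in 28 of the 39 (18 of 21 for glycolysis and 6 of 12 for the TCA cycle), against 48.4% of all promoters. The ACGTG form alone stood in 12 of the 39, with 9 of 21 for glycolysis and 0 of 12 for the TCA cycle, against 21.4% of all promoters. These are matches of letters in a short window and no measure of binding.

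Library totals ranged from 24169796 to 29835670 counts, and the mitochondrial share ranged from 5.51% to 8.05%. Within each group the libraries differed in how their levels followed the GC content of genes: Spearman's rho between GC content and a library's log2 ratio to its line's mean was -0.88, 0.78 and -0.53 in the KELLY controls and 0.90, -0.74 and 0.28 in the Erastin-treated KELLY libraries. In SK-N-AS it ran from -0.83 to 0.84. For the responses to Erastin and the calls between the lines, values after a correction for this trend are given beside those from the deposited counts. All 8 adrenergic neuroblastoma markers were higher in KELLY (edgeR, adjusted p under 0.05), with sums of 2815 to 4902 CPM in its controls against 1131 to 1297 in those of SK-N-AS, and 6 of 8 mesenchymal markers were lower in KELLY, with sums of 239 to 296 against 2431 to 2744 CPM. Of 8 blood cell markers, PTPRC alone was abundant, at a mean of 547 CPM in SK-N-AS controls and 0 counts in KELLY. The haemoglobin genes HBA2 and HBB had 178 and 208 counts in KELLY DMSO replicate 1, 37 and 91 in KELLY Erastin replicate 1 and 21 and 40 in SK-N-AS Erastin replicate 1, at most 3 in the other treated libraries and KELLY controls, and 0 in the SK-N-AS controls. CD3E and LYZ were at 0 in the controls of both lines. The sum of that list was 488 to 621 CPM in SK-N-AS controls and 0.122 to 15.4 CPM in KELLY controls. The sum of 6 fibroblast and endothelial markers was 688 to 851 CPM in SK-N-AS controls and 65.1 to 107 CPM in KELLY controls, with LUM at means of 528 and 0.518 CPM. The part of these differences in the results on the members was not tested.

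The control levels were compared first, to see which glycolytic and TCA cycle genes the lines differed in before treatment. Of the 42 members, 16 passed an adjusted p of 0.05 with at least a 2-fold difference (quasi-likelihood test of edgeR, Benjamini-Hochberg adjusted over all genes tested): 8 were higher in KELLY and 8 were lower. Among all 17071 genes tested 42.0% passed the same rule, 21.3% higher and 20.7% lower in KELLY, so the members' share of 38.1% was near that of all genes. By role, 11 of 23 glycolysis genes and 4 of 6 pyruvate entry genes passed, against 1 of 13 TCA cycle genes. Among all genes with a mean level inside the range of the TCA cycle members, 29.6% passed. The median size of the log2 difference, whatever its direction, was 0.99 for glycolysis, 1.34 for pyruvate entry and 0.40 for the TCA cycle, beside 0.82 for all genes tested. The 3 libraries of one line lay wholly above those of the other for 14 members higher and 19 lower in KELLY, while 66.3% of all genes tested showed such a separation.

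**Figure D1:**
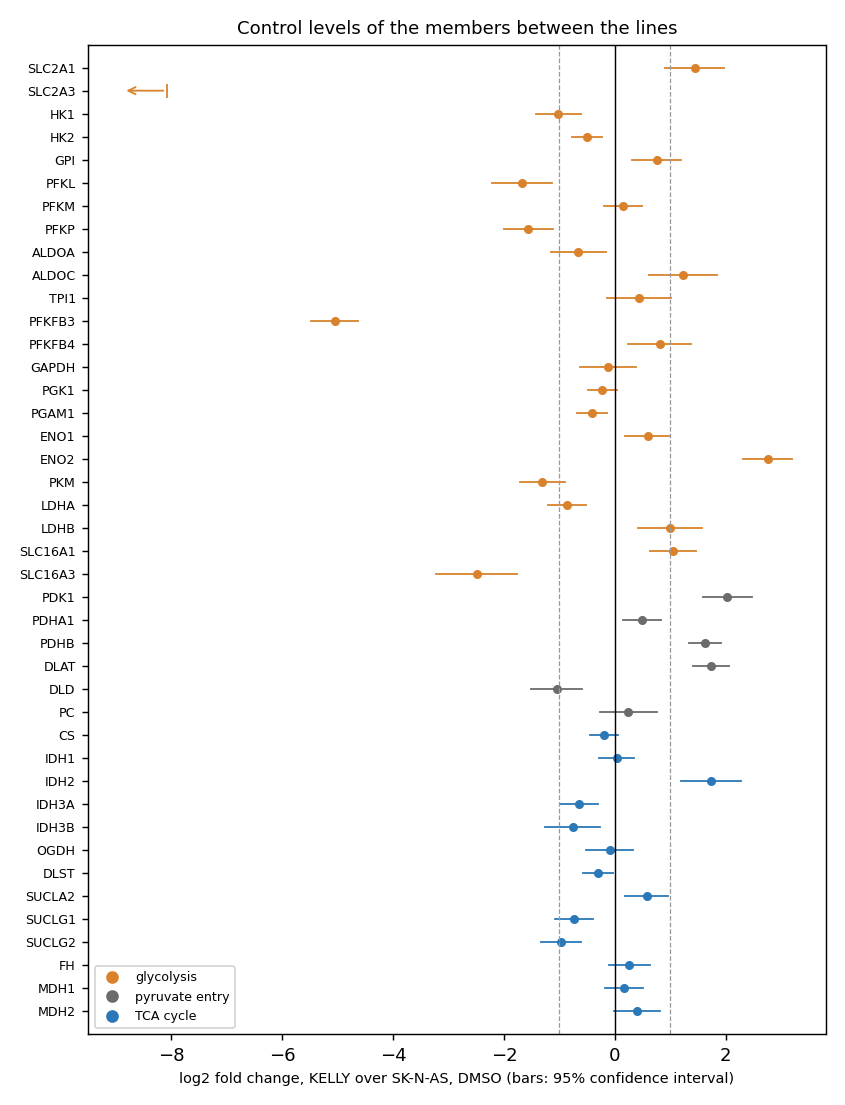
Log2 fold change of each member in KELLY over SK-N-AS with DMSO (x axis), with 95% confidence intervals from edgeR, 3 libraries a line. Dashed lines mark a 2-fold difference, the arrow for SLC2A3 is a bound (0 counts in KELLY), and the TCA cycle genes other than IDH2 lie between -0.98 and 0.58.

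Glucose import differed in which transporter was present. SLC2A1 (GLUT1), the widely expressed basal glucose transporter, read 110, 212 and 176 CPM in KELLY controls and 67.5, 64.0 and 53.6 CPM in SK-N-AS controls. All 3 KELLY libraries were above all 3 SK-N-AS libraries, and the log2 difference was 1.44 ± 0.23 (SE; edgeR adjusted p = 6.84e-04). SLC2A3 (GLUT3), a high-affinity transporter typical of neurons, had 0 counts in each KELLY control and 30.1, 31.1 and 31.7 CPM in SK-N-AS controls. Against a floor of 3 counts per library, it was at least 270-fold higher in SK-N-AS. Per kb of transcript, SLC2A3 made up 30.9% ± 3.11 (SD, n = 3) of the pair's level in SK-N-AS controls.

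In upper glycolysis, 4 of 9 genes passed, and 3 of them were lower in KELLY. Phosphofructokinase commits sugar to glycolysis, and its liver-type gene PFKL read 24.5, 43.2 and 34.1 CPM in KELLY controls and 132, 109 and 87.9 CPM in SK-N-AS controls. The groups did not overlap, and the log2 difference was -1.68 ± 0.24 (SE; edgeR adjusted p = 2.88e-04). The platelet-type gene PFKP read 76.9, 124 and 110 CPM against 342, 314 and 269 CPM, a log2 difference of -1.56 ± 0.19 (SE; edgeR adjusted p = 1.32e-04). The muscle-type gene PFKM overlapped between the lines, at 113, 148 and 126 CPM in KELLY against 123, 125 and 105 CPM, with a log2 difference of 0.15 (95% interval -0.19 to 0.49). The level of the 3 genes per kb was thus divided differently: PFKM held 45.3% ± 3.31 of it in KELLY controls and 19.7% ± 1.15 in SK-N-AS controls (SD, n = 3), while PFKP held 42.2% ± 2.49 and 60.9% ± 0.544.

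HK1 and HK2, the hexokinases that trap glucose as glucose-6-phosphate, were both lower in KELLY. HK1 read 104, 159 and 142 CPM against 306, 281 and 246 CPM (log2 difference -1.03 ± 0.18, SE; edgeR adjusted p = 9.79e-04). Its call rested on single libraries, since the difference was -0.87 without KELLY DMSO replicate 1 and -0.97 without SK-N-AS DMSO replicate 1, both under 2-fold. HK2 read 101, 103 and 108 CPM against 157, 149 and 143 CPM, a smaller log2 difference of -0.51 ± 0.12 (SE; edgeR adjusted p = 0.00528). HK2 made up 33.4% ± 4.5 of hexokinase in KELLY controls and 25.7% ± 1.19 in SK-N-AS controls (SD, n = 3, per kb).

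ALDOC, the brain aldolase, read 14.5, 28.9 and 19.2 CPM in KELLY controls against 10.4, 9.42 and 7.11 CPM in SK-N-AS controls. Its log2 difference was 1.23 ± 0.27 (SE; edgeR adjusted p = 0.00401) and fell to 0.92 without KELLY DMSO replicate 2. ALDOA, the muscle-type aldolase that most cells use, was listed at 3.77, 5.93 and 5.53 CPM against 8.54, 7.11 and 8.65 CPM (log2 difference -0.66 ± 0.22, SE; edgeR adjusted p = 0.028). That gene's level is uncertain: in GENCODE release 44, which is later than the release the authors counted with, 2077 of its 3829 exon bases are shared with other genes, among them one on the same strand, ENSG00000285043, and how reads in shared bases were assigned is not given in the sources used here. No share is therefore given for the aldolases. GPI, which turns glucose-6-phosphate into fructose-6-phosphate, had a log2 difference of 0.76 ± 0.19 (SE; edgeR adjusted p = 0.00865) and TPI1, which interconverts the triose phosphates, one of 0.44 ± 0.25 (SE; edgeR adjusted p = 0.163).

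PFKFB3 showed the largest difference among the members with counts in both lines. The PFKFB enzymes make and break fructose-2,6-bisphosphate, an activator of phosphofructokinase, and the PFKFB3 form mainly makes it. PFKFB3 read 5.02, 5.85 and 4.72 CPM in KELLY controls and 201, 172 and 151 CPM in SK-N-AS controls, a 33.2-fold lower level in KELLY (log2 difference -5.05 ± 0.19, SE; edgeR adjusted p = 1.55e-07). PFKFB4 lay the other way, at 7.9, 13.5 and 13.2 CPM against 7.77, 6.71 and 5.38 CPM (log2 difference 0.81 ± 0.25, SE; edgeR adjusted p = 0.0203), which is under 2-fold. PFKFB3 held 26.8% ± 5.79 of the pair in KELLY controls and 95.4% ± 0.221 in SK-N-AS controls (SD, n = 3, per kb). This was the widest change of share among the 8 isozyme sets examined.

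**Figure D2:**
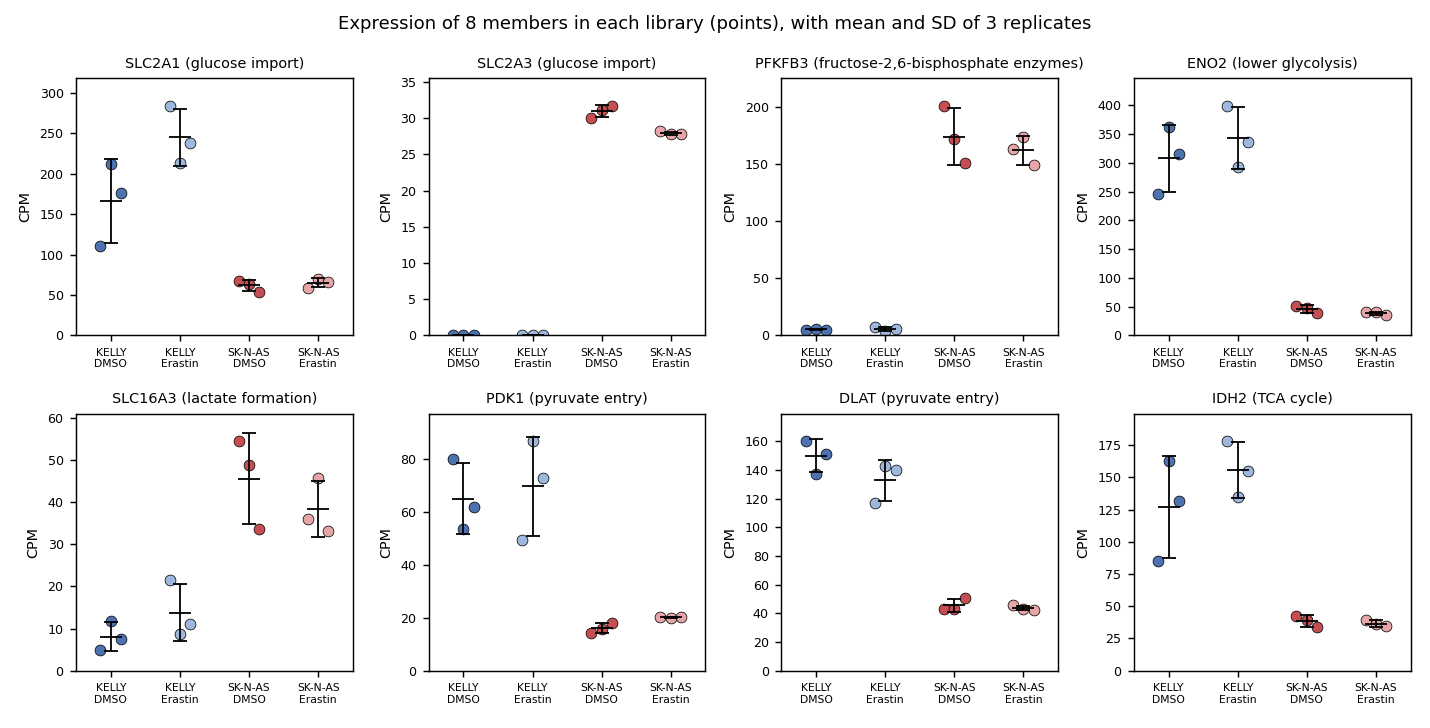
CPM (y axes, linear from 0) of 8 members in each of the 12 libraries, with the mean and SD of 3 replicates per group. In each panel the KELLY libraries lie apart from the SK-N-AS libraries. The group means differ more between the lines than between DMSO and Erastin within a line.

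Lower glycolysis, which turns triose phosphates into pyruvate with a gain of ATP, differed in 2 of its 6 genes. ENO2, the neuronal enolase, read 245, 362 and 316 CPM in KELLY controls and 51.7, 47.9 and 38.3 CPM in SK-N-AS controls. It was 6.76-fold higher in KELLY (log2 difference 2.76 ± 0.19, SE; edgeR adjusted p = 3.67e-06), and its share of enolase was 13.4% ± 0.538 against 3.31% ± 0.209 (SD, n = 3, per kb). ENO1, the common enolase, read 1189, 1911 and 1550 CPM against 1105, 1080 and 932 CPM (log2 difference 0.59 ± 0.18, SE; edgeR adjusted p = 0.0169). PKM, the pyruvate kinase gene that makes pyruvate in the last step, was lower in KELLY at 827, 1314 and 1073 CPM against 2908, 2795 and 2314 CPM (log2 difference -1.31 ± 0.18, SE; edgeR adjusted p = 2.54e-04).

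GAPDH was the most abundant member per kb in both lines, with means of 2347 CPM per kb in KELLY controls and 2581 CPM per kb in SK-N-AS controls. Its log2 difference between the lines was -0.12 (95% interval -0.63 to 0.38), and the 3 libraries of KELLY ranged from 1978 to 3813 CPM. ENO1 came second in KELLY, at 870 CPM per kb, and PKM second in SK-N-AS, at 1159 CPM per kb. PGK1, the first ATP-yielding enzyme, and PGAM1, the mutase after it, had log2 differences of -0.23 ± 0.12 (SE; edgeR adjusted p = 0.117) and -0.42 ± 0.12 (SE; edgeR adjusted p = 0.0141).

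Lactate export also differed in its transporter. SLC16A3 (MCT4), the monocarboxylate exporter of highly glycolytic cells, read 4.98, 11.7 and 7.42 CPM in KELLY controls and 54.5, 48.8 and 33.7 CPM in SK-N-AS controls, 5.62-fold lower in KELLY (log2 difference -2.49 ± 0.32, SE; edgeR adjusted p = 1.74e-04). SLC16A1 (MCT1), which carries lactate both ways, was higher in KELLY at 560, 366 and 407 CPM against 193, 215 and 244 CPM. Its log2 difference of 1.05 ± 0.18 (SE; edgeR adjusted p = 0.00102) dropped to 0.85 without KELLY DMSO replicate 1 and to 0.95 without SK-N-AS DMSO replicate 1. SLC16A3 held 2.75% ± 1.59 of the pair in KELLY controls and 23.4% ± 6.27 in SK-N-AS controls (SD, n = 3, per kb).

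LDHA and LDHB encode the subunits of lactate dehydrogenase, of which the A form favours lactate formation. LDHA read 678, 504 and 531 CPM in KELLY controls against 936, 1091 and 1138 CPM (log2 difference -0.87 ± 0.15, SE; edgeR adjusted p = 9.73e-04). LDHB went the other way, at 133, 67.5 and 77.5 CPM against 41.0, 48.0 and 52.3 CPM (log2 difference 0.99 ± 0.25, SE; edgeR adjusted p = 0.00843). Both lay just under the 2-fold limit and on either side of it across the alternatives. LDHA ranged from -1.01 without KELLY DMSO replicate 1 to -0.79 without KELLY DMSO replicate 2, and LDHB from 0.64 without the first to 1.17 without the second. LDHB made up 21.3% ± 3.43 of lactate dehydrogenase in KELLY controls and 7.12% ± 0.174 in SK-N-AS controls (SD, n = 3, per kb). In the same later release, 997 of the 2983 exon bases of LDHB are shared with a gene on the same strand, and how reads there were assigned is not given in the sources used here.

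**Figure D3:**
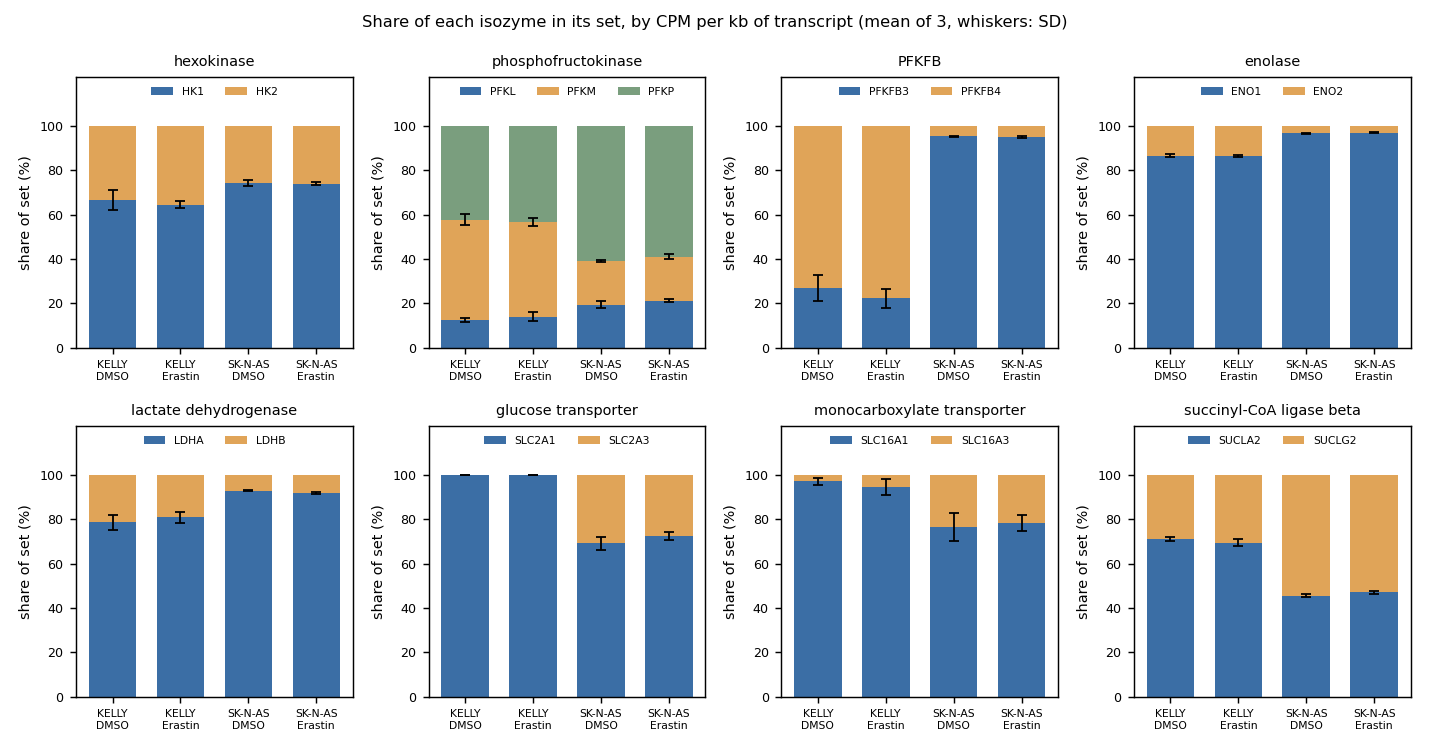
Share of each isozyme (y axis, percent of the set's CPM per kb of canonical transcript) in the 4 groups, mean of 3 libraries with SD. The shares differ most between the lines for PFKFB3 with PFKFB4, while the DMSO and Erastin means of a line lie within 5 percentage points in each set.

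Pyruvate entry was higher in KELLY for 3 of 6 genes. PDK1, the kinase that switches pyruvate dehydrogenase off, read 79.8, 53.4 and 61.9 CPM in KELLY controls and 14.2, 15.9 and 18.0 CPM in SK-N-AS controls, 4.09-fold higher in KELLY (log2 difference 2.03 ± 0.19, SE; edgeR adjusted p = 2.56e-05). Subunits of the complex itself were also higher. DLAT, its E2 acetyltransferase, read 160, 137 and 151 CPM against 43.3, 42.8 and 50.8 CPM (log2 difference 1.73 ± 0.14, SE; edgeR adjusted p = 9.55e-06), and PDHB, the E1 beta subunit, read 92.0, 95.8 and 97.9 CPM against 30.8, 31.4 and 30.9 CPM (log2 difference 1.63 ± 0.13, SE; edgeR adjusted p = 6.98e-06).

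PDHA1, the E1 alpha subunit, had a log2 difference of 0.49 ± 0.15 (SE; edgeR adjusted p = 0.0194), under 2-fold. DLD, the E3 subunit that pyruvate and 2-oxoglutarate dehydrogenase share, was the one gene of this step that was lower in KELLY. It read 86.6, 52.9 and 60.5 CPM against 124, 138 and 156 CPM (log2 difference -1.05 ± 0.20, SE; edgeR adjusted p = 0.00176), and its difference lay between -0.91 and -0.99 without KELLY DMSO replicate 2 or 3 or without SK-N-AS DMSO replicate 3, each under 2-fold. PC, which makes oxaloacetate from pyruvate, overlapped between the lines (log2 difference 0.24, 95% interval -0.27 to 0.76).

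In the TCA cycle, IDH2 was the one gene that passed from the deposited counts, with SUCLG2 just under the 2-fold limit. IDH2, the mitochondrial NADP-dependent isocitrate dehydrogenase, read 84.9, 163 and 132 CPM in KELLY controls and 42.6, 39.5 and 33.5 CPM in SK-N-AS controls, 3.31-fold higher in KELLY (log2 difference 1.73 ± 0.24, SE; edgeR adjusted p = 2.44e-04). IDH1, its cytosolic counterpart, did not separate the lines, at 114, 92.5 and 99.7 CPM against 93.0, 101 and 108 CPM (log2 difference 0.03, 95% interval -0.28 to 0.35). IDH3A and IDH3B, subunits of the NAD-dependent enzyme that works inside the cycle, were lower in KELLY by under 2-fold (log2 differences -0.65 and -0.76, edgeR adjusted p = 0.00566 and 0.0151). For IDH3A, 2646 of 6823 exon bases in that release are shared with genes on the opposite strand, and whether counting used strand is not given in the sources used here.

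Succinyl-CoA ligase, which makes ATP or GTP depending on its beta subunit, also divided differently. SUCLA2, the ATP-forming subunit, read 97.1, 71.2 and 75.7 CPM against 48.0, 55.8 and 61.4 CPM (log2 difference 0.58 ± 0.17, SE; edgeR adjusted p = 0.0162). SUCLG2, the GTP-forming subunit, read 42.4, 33.8 and 34.0 CPM against 64.3, 76.0 and 78.4 CPM (log2 difference -0.98 ± 0.16, SE; edgeR adjusted p = 6.75e-04). SUCLA2 thereby held 71.1% ± 0.878 of the pair in KELLY controls and 45.6% ± 0.832 in SK-N-AS controls (SD, n = 3, per kb). SUCLG2 lay near the 2-fold limit and passed it with DESeq2 (-1.01) and with no filter (-1.01). It also passed without KELLY DMSO replicate 1 (-1.09) or SK-N-AS DMSO replicate 1 (-1.07), and was -0.92 without KELLY DMSO replicate 2 or 3.

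SUCLG1, the alpha subunit common to both, was lower in KELLY with a log2 difference of -0.74 ± 0.15 (SE; edgeR adjusted p = 0.00272). CS, which opens the cycle by joining acetyl-CoA to oxaloacetate, differed little, at 253, 270 and 278 CPM against 308, 313 and 302 CPM (log2 difference -0.19, 95% interval -0.45 to 0.06). OGDH and DLST of the 2-oxoglutarate dehydrogenase complex, FH, which hydrates fumarate, and the malate dehydrogenases MDH1 and MDH2 did not pass an adjusted p of 0.05, with log2 differences from -0.31 to 0.40. Ordered by the size of their difference, IDH1, OGDH and GAPDH were the 3 members nearest to 0.

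The correction for GC content narrowed the spread within the controls of both lines. It set each library against the mean of its own line, so any GC trend between the lines was left in place. Little change in the estimates was therefore built in. With the correction, again 16 of 42 members passed an adjusted p of 0.05 with a 2-fold difference, beside 42.6% of all genes. IDH2 was again the one TCA cycle gene among them. Without the 2-fold limit, the number of members rose from 30 of 42 with the deposited counts (beside 61.3% of all genes) to 37 of 42 with the correction (beside 74.5%), and that of TCA cycle genes from 6 to 10 of 13. The 4 added TCA cycle genes were CS (-0.19 ± 0.06, SE; edgeR adjusted p = 0.0123), DLST (-0.30 ± 0.07, SE; edgeR adjusted p = 0.0019), FH (0.25 ± 0.07, SE; edgeR adjusted p = 0.011) and MDH2 (0.38 ± 0.10, SE; edgeR adjusted p = 0.00562). TPI1, PGK1 and PC were the other 3 members added.

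With Erastin in KELLY, 0 of the 41 members tested passed an adjusted p of 0.05 by edgeR. An unadjusted p under 0.05 was found for 2 members, beside 2.63% of all genes. DESeq2 also called 0. Of all 16238 genes tested, 0.00616% (1 gene) passed. By the threshold of the study's methods, an unadjusted p of at most 0.05 with a 1.5-fold change, 1 of 41 members passed, beside 2.01% of all genes. SLC2A3 could not be tested, with 0 counts in the controls and 0.0362 CPM in a single Erastin library. Glycolysis genes had a median log2 fold change of 0.24, with 17 of 22 positive, TCA cycle genes one of -0.02, with 5 of 13 positive, and pyruvate entry genes one of 0.00, beside 0.00 for all genes tested. Of all genes, 8194 of 16238 were positive. In bulk RNA a change in the share of one kind of cell and a change of RNA per cell cannot be told apart.

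The 95% interval of the fold change lay within 2-fold either way for 33 of the 41 members in KELLY, including all 13 TCA cycle genes, and within 1.5-fold for 12. Members whose 3 Erastin libraries all lay above the controls were SLC2A1, HK2 and ALDOA, and those wholly below were PDHB and MDH1. All genes tested showed such a separation in 8.53% of cases.

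ALDOA was the member that passed the threshold of the study's methods, at 3.77, 5.93 and 5.53 CPM with DMSO and 14.9, 6.9 and 6.09 CPM with Erastin (log2 fold change 0.88 ± 0.37, SE; unadjusted p = 0.0486 and adjusted p = 0.771 by edgeR). Replicate 1 was the highest of the Erastin libraries, and without KELLY Erastin replicate 1 no member passed. By name, SLC2A1, ALDOA and SLC16A3 passed without KELLY Erastin replicate 2, while SLC2A1, PFKL, ALDOA, ALDOC, LDHB and SLC16A3 passed without KELLY DMSO replicate 2. The shares of all genes were then 3.78% and 5.90%. No member passed without KELLY DMSO replicate 1 or 3.

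HK2 had the smallest unadjusted p in KELLY. It read 101, 103 and 108 CPM with DMSO and 141, 130 and 132 CPM with Erastin (log2 fold change 0.38 ± 0.13, SE; adjusted p = 0.771 by edgeR). SLC2A1 read 110, 212 and 176 CPM with DMSO and 284, 213 and 238 CPM with Erastin (0.57 ± 0.25, SE; adjusted p = 0.771 by edgeR). SLC16A3 read 4.98, 11.7 and 7.42 CPM and then 21.5, 8.8 and 11.2 CPM (0.79 ± 0.41, SE; adjusted p = 0.771 by edgeR).

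All 9 genes of upper glycolysis had a positive estimate in KELLY, from 0.12 for GPI to 0.88 for ALDOA, while 3 of the 4 genes of lactate formation and export had a negative one, LDHB the lowest at -0.44. The 3 TCA cycle genes with the largest estimates were SUCLA2 (-0.31 ± 0.19), IDH2 (0.31 ± 0.25) and IDH3B (0.29 ± 0.26, each SE). IDH2 read 84.9, 163 and 132 CPM with DMSO and 178, 135 and 155 CPM with Erastin, which overlap.

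These estimates followed the GC content of the transcripts. Across the 41 members tested, Spearman's rho between GC content and the KELLY log2 fold change was 0.81, a description across genes that share the same 6 libraries. Glycolysis genes were richer in GC (median 54.0%) than TCA cycle genes (46.9%) and pyruvate entry genes (42.3%). The 22 glycolysis genes stood at a median log2 ratio to the line's mean of -0.45 in KELLY DMSO replicate 1 and 0.38 in Erastin replicate 1, the libraries with the lowest and the highest GC trend, and between -0.07 and 0.13 in the other 4. The median fold change of glycolysis was 0.07 without KELLY DMSO replicate 1 and 0.10 without KELLY Erastin replicate 1. The medians without the other 4 libraries are not given here. Without KELLY DMSO replicate 2, 6 members, all of glycolysis, passed the threshold of the study's methods, beside 5.90% of all genes. LDHB among them was lower with Erastin. The part of the GC trend in these estimates was not tested.

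After a correction that removed each library's trend with GC content, the KELLY medians were 0.10 for glycolysis, -0.03 for the TCA cycle and 0.02 for pyruvate entry, and rho was 0.30. A lower rho and a narrower spread between libraries are built into such a correction. The ratio of the highest to the lowest library within the KELLY controls, taken as the median over members, fell from 1.6 to 1.16 for glycolysis and from 1.3 to 1.14 for the TCA cycle. Again 0 of 41 members passed an adjusted p of 0.05 by edgeR, beside 0.203% of all genes. An unadjusted p under 0.05 was reached by 6 members, beside 7.45% of all genes. HK2 then stood at 0.31 ± 0.07 (SE; adjusted p = 0.299 by edgeR), SLC2A1 at 0.45 ± 0.13 (SE; adjusted p = 0.459 by edgeR), PDK1 at 0.32 ± 0.08 (SE; adjusted p = 0.359 by edgeR) and ALDOA at 0.50 ± 0.21 (SE; adjusted p = 0.659 by edgeR).

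**Figure D4:**
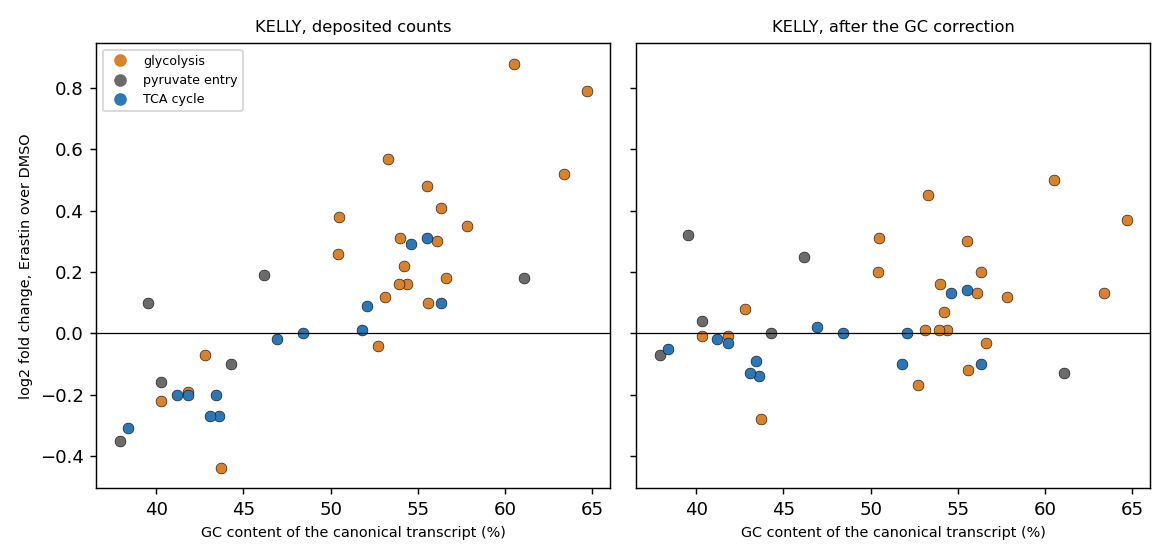
Log2 fold change with Erastin in KELLY (y axis) against the GC content of the canonical transcript in percent (x axis) for the 41 members tested, from the deposited counts (left) and after the GC correction (right). The points rise with GC content on the left (rho 0.81) and less on the right (rho 0.30), where the correction removes such a trend by design.

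With Erastin in SK-N-AS, 0 of 42 members passed an adjusted p of 0.05 by edgeR and 0 by DESeq2, beside 0.659% of all 16079 genes by edgeR. By the threshold of the study's methods 0 of 42 passed, beside 2.65% of all genes. An unadjusted p under 0.05 was reached by 3 members, beside 8.77% of all genes. The estimates were small and precise: the 95% interval lay within 1.5-fold for 40 of the 42 members and within 2-fold for all 42. The median log2 fold change was -0.10 for glycolysis, with 18 of 23 negative, -0.06 for the TCA cycle, with 9 of 13 negative, and 0.04 for pyruvate entry, beside -0.01 for all genes tested. Of all genes, 8425 of 16079 were negative. With DESeq2 and with the GC correction, 15 of 23 glycolysis genes were negative.

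The 3 members under 0.05 unadjusted were PDK1, LDHA and IDH1. PDK1 read 14.2, 15.9 and 18.0 CPM with DMSO and 20.3, 19.9 and 20.4 CPM with Erastin, all above the controls (log2 fold change 0.34 ± 0.11, SE; adjusted p = 0.331 by edgeR). LDHA read 936, 1091 and 1138 CPM and then 918, 881 and 922 CPM, all below the controls (-0.21 ± 0.08, SE; adjusted p = 0.469 by edgeR). IDH1 read 93.0, 101 and 108 CPM and then 107, 116 and 119 CPM, which overlap at one library (0.19 ± 0.09, SE; adjusted p = 0.566 by edgeR). The groups did not overlap for 5 members (PDK1 and PDHB above the controls, LDHA, SLC2A3 and CS below), beside 14.8% of all genes. Without SK-N-AS DMSO replicate 3, 4 of 42 members passed an adjusted p of 0.05 by edgeR, beside 5.21% of all genes: TPI1, ENO2 and SLC16A3, which were lower with Erastin, and PDK1, which was higher.

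The GC correction narrowed the spread in SK-N-AS, and 5 of 42 members (beside 6.98% of all genes) then passed an adjusted p of 0.05. PDK1 (0.34 ± 0.07, SE; adjusted p = 0.0116 by edgeR) and IDH1 (0.18 ± 0.05, SE; adjusted p = 0.0333) were higher with Erastin. LDHA (-0.22 ± 0.04, SE; adjusted p = 0.00396 by edgeR), ENO2 (-0.24 ± 0.07, SE; adjusted p = 0.0384) and PFKP (-0.14 ± 0.04, SE; adjusted p = 0.0425) were lower. None of these reached 1.5-fold. When each library was left out in turn, the number that passed ranged from 1, without SK-N-AS Erastin replicate 2, to 5. The share of all genes then ranged from 2.76%, without that same library, to 7.72%. ENO2 read 51.7, 47.9 and 38.3 CPM with DMSO and 40.2, 39.8 and 35.3 CPM with Erastin. The other glycolysis genes with the largest estimates from the deposited counts were SLC16A3 (-0.24 ± 0.17, SE) and TPI1 (-0.22 ± 0.12, SE), and the TCA cycle genes were IDH1, IDH3B (-0.11 ± 0.10, SE) and MDH2 (-0.08 ± 0.08, SE).

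**Figure D5:**
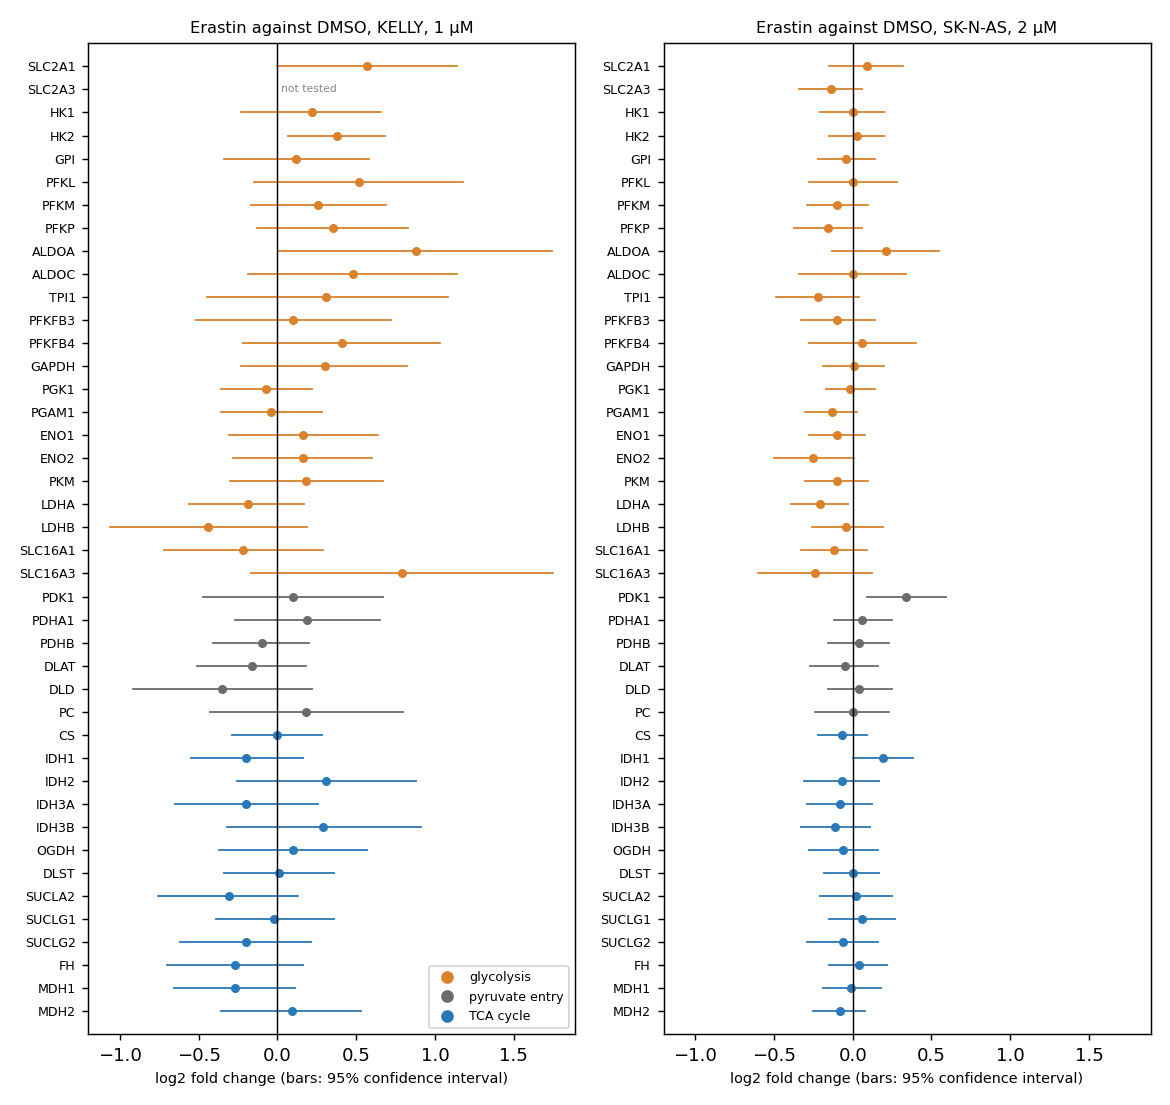
Log2 fold change of each member with Erastin over DMSO (x axis), KELLY on the left and SK-N-AS on the right, and 95% confidence intervals from edgeR, 3 libraries a group. Intervals are wider in KELLY, where all upper glycolysis estimates are positive, and lie within 1.5-fold for 40 of 42 members in SK-N-AS.

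Whether the lines responded differently was tested with an interaction term over all 12 samples. No member passed an adjusted p of 0.05 by edgeR (0 of 42), and of all 18212 genes 0.00549% did. Unadjusted, 3 members were under 0.05, beside 4.23% of all genes. The 3 were HK2 (0.35 ± 0.13, SE), PFKP (0.52 ± 0.24, SE) and IDH1 (-0.38 ± 0.16, SE), each given as the log2 response of KELLY minus that of SK-N-AS, with an adjusted p of 0.811 by edgeR. After the GC correction 0 members passed, beside 0.132% of all genes, and 8 were under 0.05 unadjusted, beside 8.38% of all genes. The shares of the isozymes with Erastin were close to those with DMSO: PFKM was 42.7% ± 0.0708 of phosphofructokinase in KELLY and 19.9% ± 0.655 in SK-N-AS, and PFKFB3 was 22.2% ± 4.14 and 94.9% ± 0.378 of its pair (SD, n = 3, per kb).

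Genes of neighbouring pathways were examined by the same test. In a list of 17 genes of gluconeogenesis, malic enzymes and the malate-aspartate shuttle, 3 of the 14 tested in SK-N-AS rose by edgeR. PCK2, the mitochondrial enzyme that makes phosphoenolpyruvate from oxaloacetate, read 27.6, 29 and 22.1 CPM with DMSO and 59.7, 97.3 and 73.4 CPM with Erastin (log2 fold change 1.56 ± 0.16, SE; adjusted p = 4.14e-04 by edgeR). GPT2, the mitochondrial alanine transaminase, read 53.2, 51.5 and 44.6 CPM and then 97.8, 141 and 119 CPM (1.27 ± 0.13, SE; adjusted p = 3.41e-04 by edgeR), and GOT1, the cytosolic aspartate transaminase, changed by 0.52 ± 0.10 (SE; adjusted p = 0.028 by edgeR).

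In KELLY, GPT2 read 36.0, 47.6 and 41.7 CPM with DMSO and 115, 95.5 and 97.9 CPM with Erastin (1.30 ± 0.17, SE; adjusted p = 0.192 by edgeR), and PCK2 read 25.5, 39.2 and 26.6 CPM and then 91.1, 60.8 and 67.7 CPM (1.27 ± 0.24, SE; adjusted p = 0.631 by edgeR). Both passed after the GC correction, at 1.09 ± 0.09 (SE; adjusted p = 0.00104 by edgeR) for GPT2 and 0.99 ± 0.11 (SE; adjusted p = 0.00543 by edgeR) for PCK2, and both passed by DESeq2, with adjusted p = 1.52e-06 and 0.00143.

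Of the hypoxia response genes, 1 of 18 tested passed in SK-N-AS from the deposited counts. This was NDUFA4L2, at a low level of 0.221, 0.0795 and 0 CPM with DMSO and 0.959, 1.46 and 0.585 CPM with Erastin (3.27 ± 0.65, SE; adjusted p = 0.0453 by edgeR). After the GC correction 5 of 18 passed, beside 6.98% of all genes: NDUFA4L2, VEGFA (0.45 ± 0.05, SE; adjusted p = 7.05e-05 by edgeR), BNIP3L and EGLN3 were higher with Erastin and CA12 was lower. In KELLY 0 of 17 passed from the deposited counts, and after the GC correction 1 did, VEGFA (0.74 ± 0.09, SE; adjusted p = 0.0135 by edgeR), beside 0.203% of all genes. VEGFA encodes a secreted growth factor of blood vessels.

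In the other lists 0 genes passed in either line by edgeR from the deposited counts: 27 further glycolysis genes, 26 further pyruvate and TCA cycle genes, 8 pentose phosphate genes and 18 regulators of glycolysis and mitochondria. After the GC correction 0 genes of those lists passed in KELLY. In SK-N-AS, where 6.98% of all genes did, 1 of 16 further glycolysis genes tested, 4 of 25 further pyruvate and TCA cycle genes, 2 of 8 pentose phosphate genes and 1 of 16 regulators passed. Between the controls, where 42.0% of all genes differed by at least 2-fold at an adjusted p under 0.05, 10 of 18 further glycolysis genes tested, 8 of 25 further pyruvate and TCA cycle genes and 6 of 8 pentose phosphate genes did so, the pentose phosphate genes mostly lower in KELLY (5 of the 6).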

How the data were processed

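RNA was measured in 12 cultures of 2 neuroblastoma lines. Per the labels and methods, the authors trimmed paired-end reads with Trimmomatic, aligned the pairs to GRCh38, assigned them to GENCODE genes by HTSeq, and compared groups with DESeq2. The aligner, the strand setting and the treatment of shared bases are not given in the sources used here. The deposited values are raw counts per gene, 1 table per line, with totals of 24169796 to 29835670 per sample.

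Counts of rows with the same gene name were summed. Each comparison was fitted on its own samples with the quasi-likelihood test of edgeR 4.0.16 in R 4.3.3, after filterByExpr and TMM scaling, with Benjamini-Hochberg adjustment over all genes tested. Calls were at an adjusted p of 0.05, between lines with a fold change of 2, and also at the threshold of the study's methods (p of 0.05, fold change of 1.5). CPM values used TMM over all 12 samples, and levels per kb used the canonical transcript of GENCODE release 44, a later release than the one the authors counted with. Alternatives were DESeq2 1.42.0, other scalings, no filter, a replicate block, 1 fit of all 12 samples, leaving out each library, and a correction that subtracted from each library a loess curve (span 0.5, degree 2) of its log2 ratio to the line's mean on GC content, fitted on genes at a mean of 10 CPM or more. A response to Erastin that itself follows GC content would be removed with it. GC content was known for 87.8% (KELLY) and 88.5% (SK-N-AS) of genes in the tests, and the other genes were shifted by the library's median ratio. The GC correction combined with leaving out a library was added after seeing the data. The code was tested on simulated data with known changes. No replicate libraries agreed within sampling noise.

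The members, the neighbouring lists and the marker lists were chosen with earlier results of these data known. The value of 1 blood cell marker is not reported here. Members named with full statistics were those called in any test (at most 8 per direction between lines), in each line the 3 glycolysis and 3 TCA cycle genes with the largest change under Erastin, and the isozyme sets in the controls. Others, such as HK2, PDK1 and LDHA under Erastin, and the promoters shown, were picked after their values were seen.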

Additional observations from a re-analysis of the deposited data

Results flagged for a closer look

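PDHB, the E1 beta subunit of pyruvate dehydrogenase, stood out because all its Erastin libraries lay below the controls in KELLY and above them in SK-N-AS. It read 92.0, 95.8 and 97.9 CPM with DMSO and 85.6, 91.6 and 88.5 CPM with Erastin in KELLY, and 30.8, 31.4 and 30.9 CPM with DMSO and 31.8, 31.5 and 31.5 CPM with Erastin in SK-N-AS. The log2 response of KELLY minus that of SK-N-AS was -0.13 ± 0.13 (SE), and the interaction test of edgeR gave an adjusted p of 0.811. After the GC correction the difference was -0.02 ± 0.11 (SE; adjusted p = 0.993 by edgeR). Groups of 3 samples were not examined for outlying samples.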

How the results depend on the processing

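In KELLY, 0 members passed an adjusted p of 0.05 under every alternative run, beside shares of all genes from 0.00% to 0.203%. The interaction likewise gave 0, beside shares of all genes from 0.00549% to 0.132%. The count at the threshold of the study's methods was 1 from the deposited counts, beside 2.01% of all genes. It was 2 with DESeq2 (1.54% of all genes), with all 12 samples in 1 fit (4.20%) and with no filter (3.10%). It was 0 with RLE size factors (1.98%), the GC correction (1.96%), the replicate block (0.696%) and the last 2 together (1.17%). When each library was left out it was 0 to 6, with shares of all genes from 1.18% to 5.90%. In SK-N-AS the count at an adjusted p of 0.05 was 0 from the deposited counts, beside 0.659% of all genes. It was 5 with the GC correction (6.98% of all genes) and 8 with the GC correction and the replicate block (11.5%). When each library was left out it was 0 to 4, with shares of all genes from 0.321% to 5.21%. With the GC correction as well it was 1 to 5, with shares from 2.76% to 7.72%. Between the lines 15 to 17 members passed under all alternatives. The share of all genes was 25.7% with DESeq2, 27.7% with no filter and 39.9% to 43.6% otherwise. When each library was left out, the TCA cycle median ranged in KELLY from -0.09 to 0.00, from -0.05 to -0.01 in SK-N-AS and from -0.21 to -0.03 between the lines, where it was -0.19 for a shorter core list. The causes of these moves were not tested. With 3 libraries a group, the KELLY intervals lay within 2-fold for 33 of 41 members and within 1.5-fold for 12. For most members a 1.5-fold change in 1 direction or the other thus lay inside the interval. Same-numbered libraries did not deviate together (KELLY r was -0.49 to -0.04 and SK-N-AS r was -0.01 to 0.12), so the numbers were not taken as pairs. Among the members, the replicate block alone changed no call with Erastin at an adjusted p of 0.05 and not the count of 16 between the lines. Over all genes, the block took the share called with Erastin from 0.659% to 1.92% in SK-N-AS and from 0.00616% to 0.00% in KELLY. At an adjusted p of 0.05 without the 2-fold limit, it took the members between the lines from 30 to 25. The share of all genes fell from 61.3% to 52.9%. The members lost were ALDOA, PFKFB4, PGAM1, PDHA1 and SUCLA2, which then had an adjusted p of 0.0589 to 0.0695 by edgeR.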
